A study of Mus musculus with 6 samples.

Results

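Genes for the subunits of the nuclear RNA polymerases I, II and III were followed in mouse 4T1 cells after nanoparticle treatment. The members were all genes whose symbol starts with Polr1, Polr2 or Polr3 and continues with a letter, and 32 of the 22806 features in the deposited table met that rule. Of these, 31 encode polymerase subunits: 6 belong to polymerase I only, 8 to polymerase II only, 10 to polymerase III only, 2 are shared by I and III, and 5 are shared by all 3 enzymes. The other member, Polr1has, is an antisense RNA gene next to Polr1h that encodes no subunit, so it was kept apart from every count of subunit genes.

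4T1 is a mouse mammary carcinoma line. The nanoparticle group was exposed to particles named CM-PEG-PLGA@DOX/R848, at a dose equal to 2 µg/mL of DOX (doxorubicin, a DNA-intercalating drug that poisons topoisomerase II), which also carried R848 (resiquimod, an agonist of Toll-like receptors). The control group received PBS (phosphate-buffered saline), and both groups were collected after 24 h, with 3 mRNA libraries each. The samples include no group given empty particles or a single drug, so the 2 drugs and the carrier cannot be told apart. The labels do not say whether libraries of a group are separate cultures, so each p-value reflects just the variation among these libraries, which may be technical.

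The table held FPKM values (fragments scaled to transcript length and library size), a unit inferred from the values, and the depth of the libraries is unknown. Summed FPKM ran from 421544 to 425231 with PBS and from 468387 to 472870 with nanoparticles, and 10596 to 10631 genes reached 1 FPKM in each library. Features above 0 numbered 13992 to 14271 with PBS and 18857 to 19053 with nanoparticles. The keratins Krt8 and Krt18 and the cadherin Cdh1 were present in all 6 libraries (Krt8 from 212 to 343 FPKM, Krt18 from 510.5 to 710.1). The epithelial marker Epcam, however, stayed under 1 FPKM (0.436 to 0.754). Cldn4 ran from 2.79 to 3.25 FPKM with PBS and lower, from 2.59 to 2.66, with nanoparticles. Krt19 (1.08 to 1.33 with PBS, 1.85 to 2.01 with nanoparticles) and Cldn7 (0.0835 to 0.0942 and 0.248 to 0.445) were higher with nanoparticles. All 6 leukocyte markers were higher in every nanoparticle library than in any PBS library. Cd68 was the only one above 2 FPKM (10.6 to 14.1 with PBS, 33.5 to 36.3 with nanoparticles). Csf1r read 0.0272 to 0.0504 with PBS and 1.22 to 1.87 with nanoparticles, and Ptprc went from 0 to between 0.389 and 0.612. The lymphocyte marker Nkg7 was at 0 in every library. Of 4 fibroblast and 3 endothelial markers, Pdgfra (20.4 to 20.8 with PBS, 4.38 to 5.04 with nanoparticles) and Cdh5 (8.31 to 8.47 and 1.39 to 1.68) were the only ones above 1 FPKM. The others, Col1a1, Col1a2, Dcn, Pecam1 and Kdr, went the other way. Each was higher in every nanoparticle library than in any PBS library. Summed over their lists, leukocyte markers came to between 10.6 and 14.2 FPKM with PBS and between 35.4 and 39.1 FPKM with nanoparticles, and epithelial markers to between 748 and 761 FPKM and between 1038 and 1080 FPKM. The part of other cell types in the results was not tested.

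Polymerase I makes the precursor of the large ribosomal RNAs, and polymerase II makes messenger RNAs and most small nuclear RNAs. Polymerase III makes transfer RNAs, the 5S ribosomal RNA and other short RNAs. Each enzyme has a core built on a pair of large catalytic subunits, an assembly platform of a pair of smaller subunits, a stalk, and peripheral subunits, and 5 small subunits are common to all 3. Doxorubicin is known to inhibit synthesis of ribosomal RNA and to slow polymerase II on DNA. The mRNA libraries measure the messages for the subunits, not the proteins or the RNAs that the enzymes make, and in bulk RNA fewer cells of a type and less RNA per cell cannot be told apart.

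Most subunit messages were higher after nanoparticle treatment. Of the 31 subunit genes, all of which reached 1 FPKM in all 6 libraries, 24 rose, 4 fell and 3 did not pass the test (limma on log2(FPKM + 1), adjusted p under 0.05 by Benjamini-Hochberg over 10863 tested genes). Over all tested genes, 86.4% were called in either direction, 40.5% higher and 46.0% lower, so a call by itself was common, whereas 77.4% of the subunit genes were called higher. The median log2 fold change was 0.498 for the subunit genes and -0.058 for all tested genes. Rises of at least 2-fold on that scale were found for 6 subunit genes, Polr2a, Polr2g, Polr2l, Polr2d, Polr1e and Polr3d, against 10.2% of all tested genes. No subunit gene fell that far, while 1469 of the 10863 tested genes did. With a pseudocount of 0.1 in place of 1, the log2 fold change of Polr3gl was -1.080. The summed level of the 31 genes went from 739 ± 11.2 to 1147 ± 12.0 FPKM (mean ± SD, n = 3 libraries per group, as throughout), a 1.55-fold difference.

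**Figure D1:**
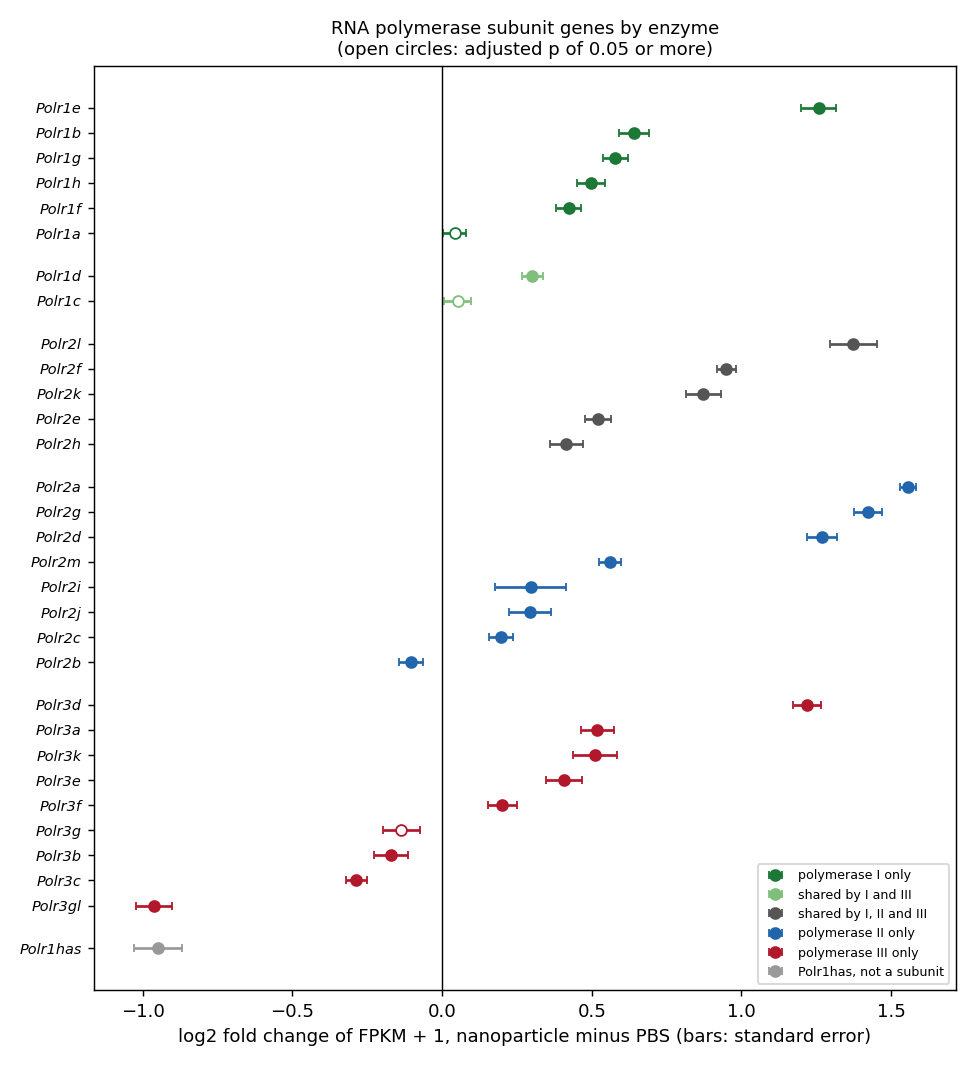
Fitted log2 fold change of FPKM + 1 (x axis, nanoparticle minus PBS) for 30 subunit genes and Polr1has (y axis), grouped by enzyme. Points are estimates from 3 libraries per group, bars are standard errors and open circles did not pass. All 5 subunits common to the 3 enzymes lie right of 0, and Polr3gl at -0.96 lies farthest left among subunits.

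Among the 8 subunits of polymerase II only, 7 rose and 1 fell, with a median log2 fold change of 0.429. Polr2a encodes the largest catalytic subunit, whose C-terminal heptad repeats are phosphorylated as the enzyme moves from initiation to elongation. Its level was 34.5, 35.1 and 35.3 FPKM in the PBS libraries and 106, 106 and 103 FPKM in the nanoparticle libraries. The groups did not overlap, and the mean went from 35.0 ± 0.381 to 105 ± 1.74 FPKM, 3.00-fold (log2 fold change 1.56, standard error (SE) 0.027, limma adjusted p = 5.78e-11). This was the largest rise of any subunit gene and moved Polr2a from rank 7 to rank 3 in level among the 32 members. The partner Polr2b encodes the second largest subunit, which closes the active site around the DNA. Its level was 28.3, 29.9 and 29.6 FPKM with PBS and 27.8, 27.7 and 26.0 FPKM with nanoparticles. The nanoparticle libraries lay just under the lowest PBS library, a small fall to 92.8% of the PBS mean (log2 fold change -0.105, SE 0.040, limma adjusted p = 0.0316). That call was lost when PBS library 2 (adjusted p = 0.0982), PBS library 3 (0.0856) or nanoparticle library 3 (0.113) was left out, and with median-of-ratios scaling (0.349).

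Polr2a lies on chromosome 11, 69733997 to 69758637 (GRCm38, minus strand, GENCODE M21). The 120 bases before its start, from RefSeq (GRCm38.p6, chr11:69758638-69758757, minus strand), are shown because this gene had the largest rise; capitals mark 3 GC boxes (GGGCGG, the letters that Sp1 family factors are known to bind) and a TATA box (TATAAA).
Polr2a: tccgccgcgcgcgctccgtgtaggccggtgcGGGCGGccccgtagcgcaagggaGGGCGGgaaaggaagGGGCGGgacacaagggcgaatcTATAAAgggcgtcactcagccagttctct
Among the 25 subunit genes with a RefSeq promoter entry, which have 28 windows of 300 bases, only Polr2a and Polr2c had TATAAA on either strand, and 13.6% of all 32851 windows had it. The GC box was in 15 of the 28 windows and in 35.7% of all windows. An ETS site (CCGGAAG) was in 8 of the 28 and in 8.86% of all, and the core of the YY1 site (ATGGCGG) was in that of Polr2l and in 4.05% of all. These matches describe letters in the windows, not bound factors.

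The stalk of polymerase II is formed by Polr2d and Polr2g, which bind each other and the emerging RNA. Polr2g went from 30.0, 33.2 and 30.0 FPKM in the PBS libraries to 82.4, 83.0 and 89.1 FPKM in the nanoparticle libraries, 2.73-fold (log2 fold change 1.42, SE 0.047, limma adjusted p = 2.89e-09). Polr2d went from 18.7, 17.2 and 18.8 FPKM to 43.0, 45.5 and 47.7 FPKM, 2.49-fold (log2 fold change 1.27, limma adjusted p = 6.8e-09). Both stalk genes rose with no overlap between groups. RefSeq lists pseudogenes of Polr2d and Polr2k, and the counting of reads shared with them is not described in the sources used here.

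Polr2m encodes a substoichiometric subunit that competes with initiation factor TFIIF for polymerase II and makes the enzyme depend on Mediator. It was the highest member with PBS, at 83.7, 76.4 and 78.6 FPKM, and read 115, 118 and 119.98 FPKM in the treated libraries. The rise was 1.48-fold, from 79.6 ± 3.76 to 118 ± 2.46 FPKM (log2 fold change 0.56, limma adjusted p = 2.63e-07). Polr2c and Polr2j, the assembly platform of polymerase II, rose less, from 36.3 ± 1.39 to 41.7 ± 1.44 FPKM and from 30.6 ± 3.52 to 37.6 ± 0.626 FPKM (log2 fold changes 0.20 and 0.29, adjusted p = 0.000955 and 0.0035, limma). Polr2i, a small subunit linked to transcript proofreading, went from 9.50, 8.05 and 7.81 FPKM to 12.6, 8.92 and 10.5 FPKM. Its groups overlapped, and its call (log2 fold change 0.30, SE 0.118, limma adjusted p = 0.0446) was lost when PBS library 2, PBS library 3, nanoparticle library 1 or nanoparticle library 3 was left out (adjusted p = 0.119, 0.133, 0.111 and 0.0878). After rescaling every library to the same sum of FPKM, Polr2i, Polr2c and Polr2j did not pass (limma adjusted p = 0.229, 0.296 and 0.0705).

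The table does not say whether reads were counted by strand, so exons shared with a gene on the other strand cannot be told apart. Polr2i shares 26.8% of its exonic bases with Tbcb, which itself rose from 9.48 ± 0.735 to 12.8 ± 1.40 FPKM. Polr2c shares 18.1% with Dok4 (log2 fold change -0.14), Polr2j shares 15.9% with Lrwd1 (0.15), and Polr2f shares 9.4% with 1700088E04Rik (-0.575). Each of the other subunit genes named here shared at most 5.4%.

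**Figure D2:**
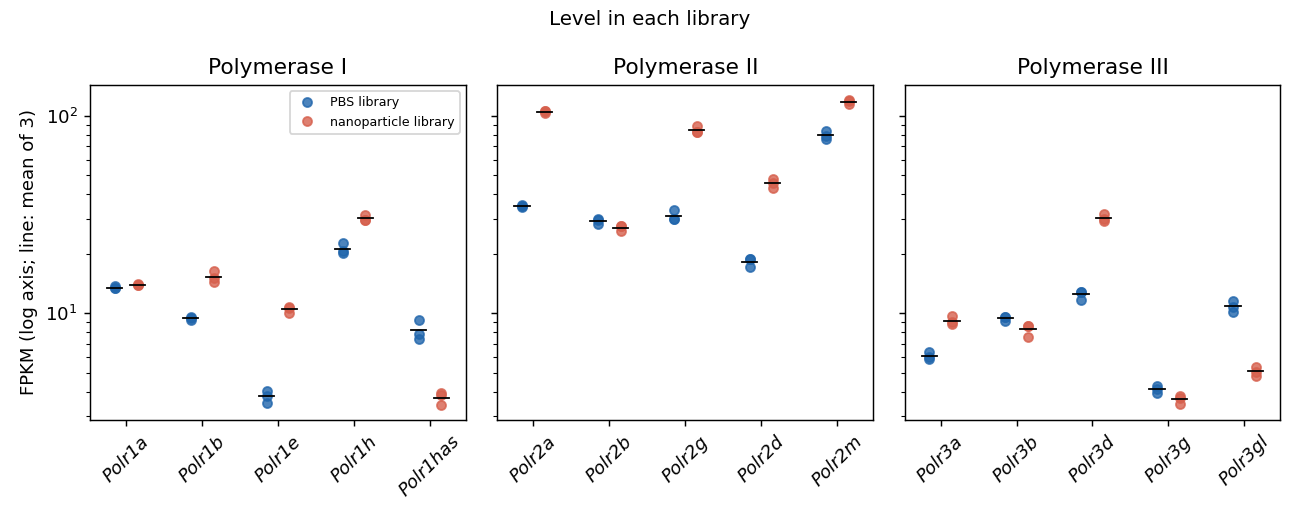
FPKM (log axis) of 15 members in each library, by enzyme. Each point is 1 library, blue for PBS and red for nanoparticle, and lines are means of 3. Polr2a stands near 35 FPKM with PBS and near 105 with nanoparticles beside an almost level Polr2b, and Polr3gl drops from 10.8 to 5.07.

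All 5 subunits shared by the 3 polymerases rose, with a median log2 fold change of 0.873. These genes are short, and with the trend of fold change on span and exonic length over all genes removed, 4 of the 5 were called higher and the median was 0.194. Polr2l, a small zinc-binding subunit at the assembly platform, went from 7.79, 7.74 and 6.27 FPKM in the PBS libraries to 19.0, 20.6 and 21.5 FPKM in the nanoparticle libraries. No library of one group reached the other, and the rise was 2.80-fold, the third largest on the log2 scale among the subunit genes (log2 fold change 1.37, SE 0.079, limma adjusted p = 1.73e-07). Polr2f, a small subunit that helps hold the clamp and was the highest member with nanoparticles, went from 78.0, 77.0 and 74.9 FPKM to 155, 145 and 147 FPKM, 1.94-fold. Polr2k, another zinc-binding subunit, went from 20.3, 20.7 and 20.2 FPKM to 35.4, 37.2 and 42.2 FPKM, 1.88-fold. The other two rose less. Polr2e, part of the jaw that grips DNA ahead of the enzyme, went from 61.5 ± 3.24 to 88.6 ± 3.23 FPKM (log2 fold change 0.52). Polr2h, a small subunit that binds the largest one, went from 19.4 ± 0.823 to 26.2 ± 1.89 FPKM (log2 fold change 0.415, limma adjusted p = 5.56e-05), but 0.008 with the trend on span and length removed (adjusted p = 0.898). Together the 5 common subunits summed to 185 ± 4.33 FPKM with PBS and 323 ± 7.08 FPKM after treatment.

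Of the 6 subunits of polymerase I only, 5 rose, none fell and 1 did not pass, with a median log2 fold change of 0.538. Polr1a encodes the largest catalytic subunit. Its level was 13.4, 13.8 and 13.3 FPKM with PBS and 13.8, 13.9 and 14.0 FPKM with nanoparticles, so the groups were separated by less than 1 FPKM and the difference did not pass (log2 fold change 0.04, SE 0.039, limma adjusted p = 0.324). Its direction turned with the scaling of the libraries, to -0.105 after rescaling every library to the same sum of FPKM (adjusted p = 0.0396) and to 0.10 with median-of-ratios scaling (adjusted p = 0.0306, limma for both). Polr1b, the second largest subunit, went from 9.49, 9.25 and 9.55 FPKM to 15.1, 16.3 and 14.5 FPKM. Every nanoparticle library was above every PBS library, and the rise was 1.62-fold (log2 fold change 0.64, SE 0.051, limma adjusted p = 1.26e-06).

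Polr1e and Polr1g form a heterodimer of polymerase I that acts in initiation and elongation. Polr1e had the largest rise of the polymerase I genes, from 3.53, 3.81 and 4.05 FPKM to 10.8, 10.6 and 10.02 FPKM, 2.76-fold (log2 fold change 1.26, SE 0.059, limma adjusted p = 2.44e-08). Polr1g rose less, from 9.12 ± 0.214 to 14.1 ± 0.0179 FPKM (log2 fold change 0.58, limma adjusted p = 5.36e-07). Polr1f, the stalk subunit that contacts the initiation factor Rrn3, rose from 9.53 ± 0.261 to 13.1 ± 0.269 FPKM (log2 fold change 0.42). Polr1h, a zinc ribbon subunit needed for RNA cleavage, went from 20.3, 22.7 and 20.6 FPKM to 29.8, 29.8 and 31.4 FPKM (log2 fold change 0.50, limma adjusted p = 4.82e-06). That call was lost with the trend on span and length removed (-0.080, adjusted p = 0.15, limma).

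The antisense gene beside Polr1h moved the other way. Polr1has read 7.40, 7.89 and 9.27 FPKM in the PBS libraries and 3.86, 3.44 and 3.93 FPKM in the nanoparticle libraries. It fell to 45.7% of the PBS mean (log2 fold change -0.95, SE 0.081, limma adjusted p = 2.18e-06). Polr1h lies on the minus strand of chromosome 17 (36954356 to 36958559) and Polr1has on the plus strand (36958592 to 36965625), so in this annotation they start head to head and share no exon. The 32 bases between the starts are shown in full, plus strand (GRCm38.p6, chr17:36958560-36958591), because transcription leaves in opposite directions from either side of them.
Polr1h to Polr1has: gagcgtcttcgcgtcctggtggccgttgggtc

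Polr1c and Polr1d, the assembly platform shared by polymerases I and III, were among the highest members and moved little. Polr1d rose from 59.1, 56.3 and 61.4 FPKM to 72.9, 74.4 and 71.2 FPKM (log2 fold change 0.30, limma adjusted p = 2.71e-05). Polr1c read 63.0, 65.0 and 61.4 FPKM with PBS and 60.9, 68.6 and 67.2 FPKM with nanoparticles. Its groups overlapped and it did not pass (log2 fold change 0.05, SE 0.046, limma adjusted p = 0.305), though it passed when nanoparticle library 1 was left out (log2 fold change 0.10, adjusted p = 0.0193) and with median-of-ratios scaling (0.12, adjusted p = 0.0317, limma for both).

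Of the 10 subunits of polymerase III only, 6 rose, 3 fell and 1 did not pass, with a median log2 fold change of 0.304. Polr3a, the largest catalytic subunit, went from 5.83, 6.38 and 6.01 FPKM to 8.98, 9.65 and 8.79 FPKM. The groups were apart, and the rise was 1.505-fold (log2 fold change 0.52, SE 0.055, limma adjusted p = 1.09e-05). Polr3b, the second largest, went from 9.60, 9.61 and 9.17 FPKM to 8.61, 8.65 and 7.62 FPKM. Its nanoparticle libraries all lay lower, at 87.7% of the PBS mean (log2 fold change -0.17, SE 0.057, limma adjusted p = 0.0172). Without PBS library 1, PBS library 2 or nanoparticle library 3 that call was lost (adjusted p = 0.0516, 0.0502 and 0.0572), as with median-of-ratios scaling (0.092), so leaving out PBS library 2 or nanoparticle library 3 reduced the fallen subunit genes from 4 to 2.

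Polymerase III opens promoters with a peripheral trimer of Polr3c, Polr3f and one of the paralogs Polr3g and Polr3gl; Polr3g is known as the form of stem cells and many tumour cells, Polr3gl as the form of most differentiated tissues. Polr3gl read 11.6, 10.8 and 10.2 FPKM in the PBS libraries and 4.84, 5.34 and 5.04 FPKM in the nanoparticle libraries. It had the largest fall of the subunit genes, from 10.8 ± 0.712 to 5.07 ± 0.254 FPKM, or 46.8% of the PBS mean (log2 fold change -0.96, SE 0.060, limma adjusted p = 2.04e-07), and went from rank 18 to rank 29 in level. Polr3g read 4.12, 4.30 and 3.93 FPKM with PBS and 3.70, 3.80 and 3.47 FPKM with nanoparticles. That difference did not pass (log2 fold change -0.14, SE 0.061, limma adjusted p = 0.0599), though it did after rescaling every library to the same sum of FPKM (-0.29, limma adjusted p = 0.00347). Polr3gl stayed above Polr3g in every library. Polr3c fell from 26.5, 28.0 and 27.3 FPKM to 22.3, 21.8 and 22.5 FPKM (log2 fold change -0.29, SE 0.036, limma adjusted p = 3.68e-05). Polr3f, the remaining part of the trimer, rose slightly, from 7.66 ± 0.378 to 8.96 ± 0.1995 FPKM (log2 fold change 0.20, limma adjusted p = 0.00399), and did not pass after rescaling every library to the same sum of FPKM (adjusted p = 0.271).

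Polr3gl (96577872 to 96594181) and Polr3c (96711490 to 96727628) lie on the minus strand of chromosome 3 (GRCm38), and they had the largest falls of the subunit genes. The RefSeq windows of both hold an E box (CACGTG, the letters bound by Myc, Usf and related factors, in capitals), which 5 of the 25 subunit genes matched and 7.15% of all 32851 windows held. Shown are the stretch before each start that reaches to the window's far end (Polr3gl chr3:96594182-96594431, Polr3c chr3:96727629-96727689, minus strand); in Polr3c the capitals also mark 2 GC boxes read on the other strand (CCGCCC).
Polr3gl: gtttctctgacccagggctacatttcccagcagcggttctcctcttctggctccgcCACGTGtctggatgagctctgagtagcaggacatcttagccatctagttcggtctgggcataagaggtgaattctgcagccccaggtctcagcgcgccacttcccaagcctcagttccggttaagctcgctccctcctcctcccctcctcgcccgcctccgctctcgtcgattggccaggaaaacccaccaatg
Polr3c: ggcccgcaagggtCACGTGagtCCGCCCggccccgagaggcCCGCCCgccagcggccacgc
The other subunit genes with an E box in the window were Polr1g, Polr2h and Polr3e, and these 3 rose.

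Polr3d and Polr3e form a heterodimer that acts in initiation and termination. Polr3d had the largest rise of the polymerase III genes, from 12.8, 11.7 and 12.9 FPKM to 29.4, 30.0 and 31.6 FPKM, 2.44-fold (log2 fold change 1.22, SE 0.048, limma adjusted p = 8.14e-09). Polr3e was the lowest member with PBS, at 3.60, 3.38 and 3.75 FPKM, and rose to 4.98, 4.86 and 5.35 FPKM (log2 fold change 0.41, limma adjusted p = 0.000147). Crcp, a polymerase III subunit whose symbol is outside the rule, rose from 10.8 ± 1.08 to 21.3 ± 0.911 FPKM (log2 fold change 0.92, limma adjusted p = 7.16e-07). Polr3k, the small subunit needed for RNA cleavage and termination, rose from 10.2 ± 0.923 to 15.0 ± 1.15 FPKM (log2 fold change 0.51, limma adjusted p = 0.000109).

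Polr3e has a transfer RNA gene, itself a template of polymerase III, directly upstream. In RefSeq, n-TLaag4 covers chr7:120917517-120917598 (GRCm38.p6) and ends 179 bases before the RefSeq start of Polr3e. The stretch of it inside the promoter window, chr7:120917528-120917598 on the plus strand, is shown because it holds the core of a B box (GGTTCGA, in capitals), the internal promoter element that the polymerase III factor TFIIIC binds.
n-TLaag4: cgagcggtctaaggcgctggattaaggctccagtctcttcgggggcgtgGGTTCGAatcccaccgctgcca
These letters were found in 0.91% of all windows and in 1 of the 25 subunit genes. Transfer RNAs are not measured by these mRNA libraries.

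Ratios were formed for partner subunits, for the alternative subunits Polr3gl and Polr3g, and for Polr1h and its neighbour Polr1has, which encodes no subunit. A ratio of 2 genes within 1 library does not depend on how the libraries were scaled. The 12 pairs were chosen after the values were seen, so they are descriptions with no test. In 10 pairs the 3 nanoparticle ratios lay outside the range of the 3 PBS ratios. For levels of single genes, a different measure, 87.2% of all tested genes did not overlap between groups, so separation of levels was common. The share of separated ratios over other pairs of genes was not computed. Polr2a over Polr2b was 1.196 ± 0.0235 with PBS and 3.87 ± 0.0863 with nanoparticles. Polr1a over Polr1b moved in the opposite sense, from 1.43 ± 0.0511 to 0.913 ± 0.0574, and Polr3a over Polr3b went from 0.642 ± 0.0304 to 1.10 ± 0.0561. The message for the largest subunit was higher relative to the second largest in polymerases II and III and lower in polymerase I. Polr1a and Polr3b are the longest subunit genes, and after removal of the trend of fold change on span and length over all genes, the order in polymerase I turned (log2 fold change 0.674 for Polr1a, 0.557 for Polr1b) and the polymerase III genes came close (0.663 for Polr3a, 0.571 for Polr3b), while Polr2a (1.476) stayed above Polr2b (0.035).

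Within the polymerase III trimer, Polr3gl over Polr3g went from 2.63 ± 0.161 to 1.39 ± 0.0751 and Polr3c over Polr3f from 3.56 ± 0.177 to 2.48 ± 0.0865. Polr3d over Polr3e went from 3.48 ± 0.0720 to 5.99 ± 0.160, and Polr1g over Polr1e from 2.41 ± 0.222 to 1.35 ± 0.0510. The ratio of Polr2m to Polr2a went from 2.28 ± 0.131 to 1.12 ± 0.0384, and that of Polr1h to Polr1has went from 2.61 ± 0.345 to 8.12 ± 0.477. Polr1c over Polr1d differed least among the separated pairs, from 1.07 ± 0.0783 to 0.900 ± 0.0581. In 2 pairs the groups overlapped: the polymerase II stalk (Polr2g over Polr2d, 1.71 ± 0.190 and 1.87 ± 0.0458) and the polymerase II platform (Polr2c over Polr2j, 1.19 ± 0.0862 and 1.11 ± 0.0451).

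**Figure D3:**
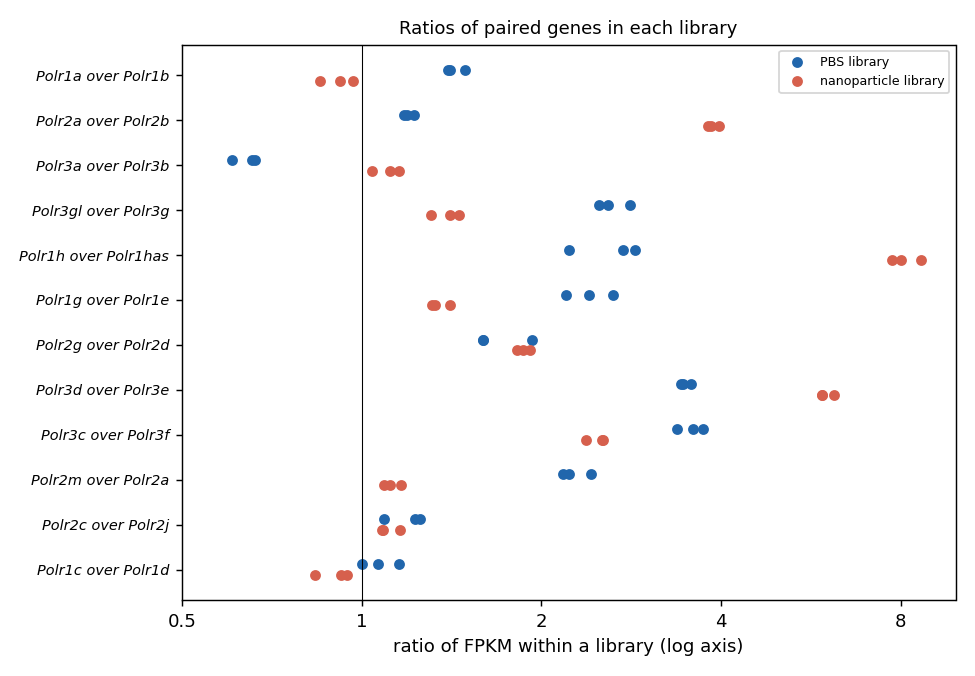
Ratio of the FPKM values of 2 genes within a library (x axis, log scale) for 12 pairs (y axis). Each point is 1 library, blue for PBS and red for nanoparticle. Polr2a over Polr2b moves from 1.196 to 3.87, while the points of the stalk pair Polr2g over Polr2d overlap.

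Summed by enzyme class, the messages of polymerase II and of the common subunits had the largest ratios of nanoparticle to PBS. The 8 genes of polymerase II only summed to 268 ± 7.67 FPKM in the PBS group and 470.1 ± 5.92 FPKM in the nanoparticle group, a ratio of 1.75, and the 5 common genes had a ratio of 1.74. The 6 genes of polymerase I only went from 66.6 ± 1.22 to 97.2 ± 0.711 FPKM (ratio 1.46). The 10 genes of polymerase III only went from 96.9 ± 0.643 to 119 ± 2.45 FPKM (ratio 1.22), and the 2 genes shared by I and III from 122 ± 0.717 to 138 ± 4.62 FPKM (ratio 1.13). In none of these sums did a nanoparticle library fall within the PBS range. Differences between the classes were not tested. Median log2 fold changes, another measure, gave another order. They were 0.873 for the common subunits, 0.538 for polymerase I only, 0.429 for II only and 0.304 for III only. The pair shared by I and III had 0.177. When the trend on span and length was removed, this order of medians changed too. It was then 0.394 for polymerase I only, 0.282 for III only, 0.194 for the common subunits and 0.135 for II only. The pair shared by I and III was then at 0.036. The range of levels among the 31 genes widened, from 22.2-fold between the highest and the lowest with PBS to 40.7-fold with nanoparticles.

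Genes of short genomic span were more often higher throughout the table, and the subunit genes were mostly short. Span (gene start to gene end in GENCODE M21) correlated with the log2 fold change at Pearson's r = -0.48 and Spearman's rho = -0.49 over 10836 tested genes, and at r = -0.31 and rho = -0.34 over the 31 subunit genes. These are descriptions across genes, which share the libraries and are not independent replicates. Of the 21 subunit genes under 20 kb, 18 rose and 2 fell (median 0.51), while 57.9% of all tested genes that short were called higher and 27.4% lower (median 0.295). Of the 10 subunit genes of 20 kb or more, 6 rose and 2 fell (median 0.35), while 26.0% of all tested genes that long were called higher and 61.4% lower (median -0.36). Polr2a, at 24.6 kb, rose more than any shorter subunit gene, and Polr3gl, at 16.3 kb, fell more than any longer one.

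With the trend of fold change on span and exonic length over all genes removed, 20 subunit genes were called higher and 4 lower. Of all genes, 40.6% were then called higher and 43.8% lower. The median over the 31 genes was 0.231 in place of 0.498, with -0.026 over all genes. The median of the 5 common subunits was 0.194 in place of 0.873, and that of polymerase II only 0.135 in place of 0.429. Polr2a (1.48) and Polr3gl (-1.26) kept their calls. Polr3b, the longest subunit gene at 104.9 kb, turned to 0.57 (limma adjusted p = 4.02e-06), and Polr1a, at 75.9 kb, became higher (0.67, limma adjusted p = 5.59e-08). Polr1c (-0.30, limma adjusted p = 0.000147) and Polr2j (-0.18, limma adjusted p = 0.0385) turned lower. The rises of Polr1h (-0.080), Polr2c (-0.049), Polr2i (-0.145), Polr3f (-0.026) and Polr2h (0.008) and the fall of Polr2b (0.035) were no longer called. Rises that stayed called but shrank by more than 1.5 times were those of Polr1f (0.131), Polr1g (0.231), Polr2d (0.782), Polr2e (0.175), Polr2k (0.194), Polr2m (0.234) and Polr3k (0.178).

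**Figure D4:**
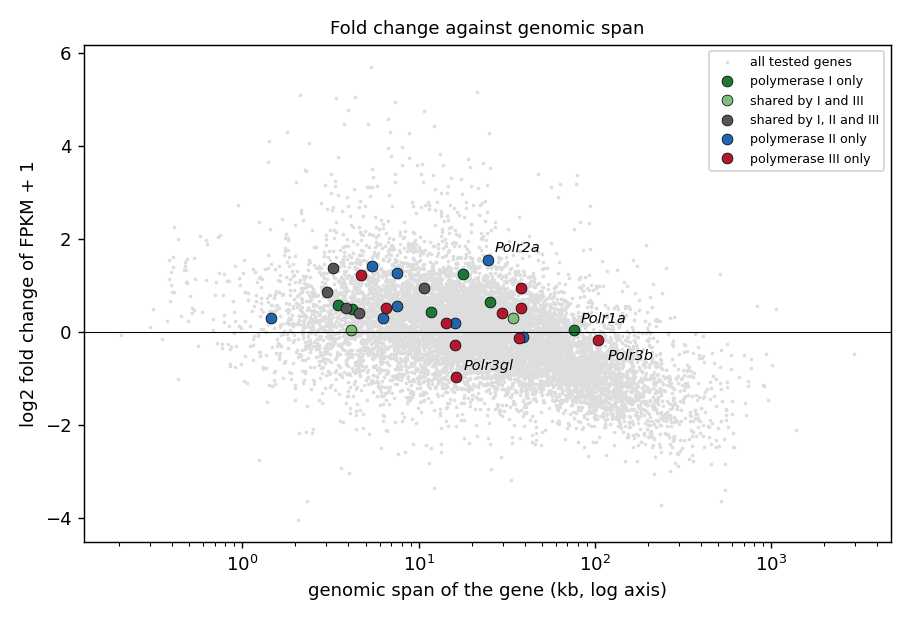
Log2 fold change of FPKM + 1 (y axis) against genomic span in kb (x axis, log scale). Grey points are all tested genes with a span, coloured points the 31 subunit genes by enzyme. All tested genes slope down with span (r = -0.48), Polr2a lies high for its 24.6 kb, and Polr3gl low for its 16.3 kb.

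Other genes of the transcription machinery, in 6 lists of 111 tested genes, also moved in both directions: 74 rose, 31 fell and 6 did not pass, with a median log2 fold change of 0.369. Set beside these counts, 40.5% of all tested genes were called higher and 46.0% lower. Of 9 polymerase I factors, 7 rose and 2 fell (median 0.81). Nolc1 and Tcof1, nucleolar phosphoproteins of ribosomal RNA synthesis, had the largest rises (1.885 and 1.22, or 1.569 and 1.302 with the trend on span and length removed). Taf1b and Ttf1, a selectivity factor subunit and the termination factor, fell (-0.76 and -0.18, or -0.343 and -0.230 with that trend removed). The Ttf1 call (limma adjusted p = 0.0107) was lost with median-of-ratios scaling (limma adjusted p = 0.0545) and at an adjusted p under 0.01. Of 31 general factors of polymerase II, 20 rose, 9 fell and 2 did not pass (median 0.42). Gtf2f1, the large subunit of TFIIF, rose most, from 56.3 ± 1.59 to 243 ± 3.13 FPKM (log2 fold change 2.09, limma adjusted p = 1.48e-11), followed by the TFIID subunit Taf7 (1.495). Gtf2f1 and Taf7 were at 1.727 and 1.146 with that trend removed. Mnat1 of the TFIIH kinase and Taf3 of TFIID fell most (-1.26 and -1.09). With the trend on span and length removed, these 2 long genes were at -0.324 (adjusted p = 0.0661, no longer called) and -0.198 (adjusted p = 0.0313, limma for both).

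Of 32 pausing and elongation genes, 20 rose, 11 fell and 1 did not pass (median 0.29). The largest rises were Mepce and Hexim1 (1.33 and 1.31), which hold the elongation kinase P-TEFb in its inactive complex. The largest falls were the kinase Cdk13 and the Paf1 complex subunit Cdc73 (-1.31 and -1.135). With the trend on span and length removed, the rises were 0.987 and 0.956 and the falls -0.541 and -0.303. Of 18 polymerase III factors, a list that includes the subunit Crcp, 10 rose, 6 fell and 2 did not pass (median 0.17). Brf2, the TFIIIB subunit used where the promoter lies upstream of the gene, and Crcp rose most (1.14 and 0.92). The small nuclear RNA factor Snapc2 and Maf1, the repressor of polymerase III, fell most (-1.17 and -0.89). With the trend removed, Brf2 and Crcp were at 0.795 and 0.882, and Snapc2 and Maf1 at -1.551 and -1.238. Maf1 went from 50.5 ± 1.49 to 26.8 ± 0.138 FPKM (limma adjusted p = 4.61e-09).

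Of 15 genes for assembly and nuclear import of the polymerases, 12 rose and 3 fell (median 0.61). The GTPase Gpn2 and the prefoldin-like Pdrg1 rose most (1.56 and 1.17, or 1.168 and 0.832 with the trend removed). Uri1, a scaffold of the same prefoldin-like complex, and the phosphatase Rpap2 fell most (-1.55 and -0.975, or -1.106 and -0.523 with the trend removed). Of 7 genes for mitochondrial transcription, 5 rose, 1 fell and 1 did not pass (median 0.45). Their single-subunit polymerase, Polrmt, rose from 8.71 ± 0.442 to 10.9 ± 0.297 FPKM (log2 fold change 0.30, limma adjusted p = 0.000338, but -0.013 with the trend on span and length removed). Tfb2m and Tfam, its initiation factors, rose more (0.60 and 0.545, or 0.388 and 0.256 with the trend removed). The elongation factor Tefm fell (-0.35, or -0.741 with the trend removed).

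**Figure D5:**
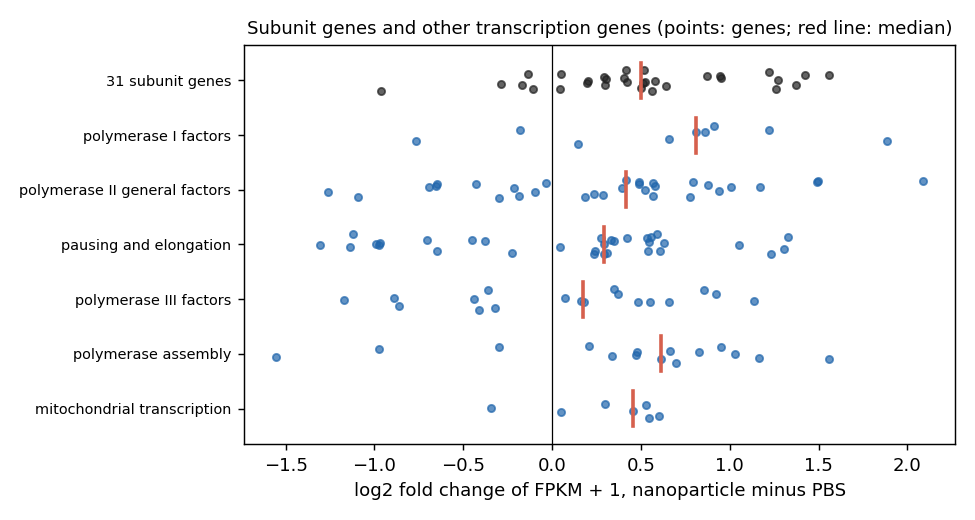
Log2 fold change of FPKM + 1 (x axis, nanoparticle minus PBS) of the 31 subunit genes and of 6 lists of transcription genes (y axis). Points are genes, spread vertically at random, and red lines are medians. Every median lies right of 0, from 0.17 for polymerase III factors to 0.81 for polymerase I factors, and every set has genes on both sides of 0.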

How the data were processed

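Messenger RNA of 6 libraries of 4T1 cells was sequenced, 3 per group, after TRIzol extraction and enrichment of mRNA, per the labels' protocols. The deposited values are FPKM: the header names no unit, and this one was inferred from the values, which were not whole numbers and summed to different totals. STAR, featureCounts, GRCm38 and mm10 are named per the submitters' processing notes, without versions; how the authors made the FPKM values is not stated, nor are the annotation and the strand setting. At most 1.88% of the ratios of low values between libraries of a group fell in any 1% bin, so reads could not be recovered and no counting interval is given. The 701 features without a gene identifier (0.631% to 0.670% of summed FPKM) were left out.

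Values were taken as log2(FPKM + 1), which understates changes of low genes. Genes reaching 1 FPKM in 3 or more libraries (10863 of 22105) were fitted with limma 3.58.1 (R 4.3.3, statmod 1.5.0; lmFit, eBayes with trend and robust), nanoparticle minus PBS, and called at a Benjamini-Hochberg adjusted p under 0.05, two-sided. The script was tested on simulated data. Tables and plots used Python 3.11.15, numpy 2.4.6, pandas 2.3.3 and matplotlib 3.10.9. Spans and exons came from GENCODE M21, promoter windows (250 bases before to 50 after a start) from RefSeq GRCm38.p6, searched on both strands for the E box (CACGTG) and the TATA box (TATAAA), the GC box (GGGCGG), the ETS site (CCGGAAG), the core of the YY1 site (ATGGCGG) and the core of the B box (GGTTCGA), for the 25 subunit genes that matched. Alternatives were a pseudocount of 0.1, no filter, a minimum of 5 FPKM, an adjusted p under 0.01, limma's treat at 1.2-fold, a replicate block, each library left out, rescaling to equal sums (TPM scale), median-of-ratios scaling, and removal of the span and length trend. The members, lists, motifs and pairs were chosen with earlier results of these data known. Per-library values were given for the catalytic subunits, Polr3g, Polr3gl, Polr2m and the 3 largest rises and falls, others being added after their values were seen; 2 rises and 2 falls were named per list, and Polrmt. One member is counted in the totals but its own values are not reported here.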

Additional observations from a re-analysis of the deposited data

How the results depend on the processing

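Of the 31 subunit genes, 18 kept their direction and call under each of the 15 alternatives that tested them and 13 did not under at least 1. The minimum of 5 FPKM left 29 subunit genes tested, without Polr3e and Polr3g. The equal replicate numbers of the groups did not pair the libraries (correlations of their deviations -0.0141, -0.0428 and 0.0411), and with a replicate block 24 subunit genes were called higher and 4 lower, with no call changed. The 24 higher calls became 19 with treat at 1.2-fold, 20 on the TPM scale, 26 with median-of-ratios scaling, and 23 to 24 with a library left out. The 4 lower calls became 1 with treat, 6 on the TPM scale, 2 with median-of-ratios scaling, 2 at an adjusted p under 0.01, and 2 to 4 with a library left out. Over all tested genes, 29.7% were called higher and 34.7% lower with treat, and 34.5% and 51.4% on the TPM scale. The shares were 43.2% and 43.2% with median-of-ratios scaling, and 38.1% and 43.1% at an adjusted p under 0.01. With a library left out, 38.4% to 40.7% were called higher and 43.9% to 46.6% lower. The TPM scale moved the median of all genes from -0.058 to -0.189, and the median of the subunit genes stayed 0.546 above it (0.555 as reported).

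Median log2 fold changes moved as follows. For the 31 subunit genes (0.498) the median was 0.357 on the TPM scale, 0.561 with median-of-ratios scaling, 0.231 after removal of the trend on span and length, and 0.443 to 0.496 with a library left out. For polymerase I only (0.538) in that order these were 0.408, 0.60, 0.394 and 0.521 to 0.564, and 0.570 with a pseudocount of 0.1. For polymerase II only (0.429) they were 0.288, 0.492, 0.135 and 0.40 to 0.491. For polymerase III only (0.304) they were 0.192, 0.360, 0.282 and 0.283 to 0.335, with 0.357 at a pseudocount of 0.1 and 0.356 at a minimum of 5 FPKM. For the subunits common to all 3 enzymes (0.873) the TPM scale gave 0.739, trend removal 0.194 and leaving out a library 0.802 to 0.924. For the pair shared by I and III (0.177) the TPM scale gave 0.026, median-of-ratios scaling 0.242 and trend removal 0.036. For the 6 lists (0.369) the values were 0.239, 0.429 and 0.250 in that order, 0.399 with a pseudocount of 0.1 and 0.349 at a minimum of 5 FPKM.

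Directions turned for Polr1a (-0.105) and, without passing the test on either scale, Polr1c (-0.100) on the TPM scale and, after removal of the trend on span and length, for Polr1c (-0.300), Polr1h (-0.080), Polr2b (0.035), Polr2c (-0.049), Polr2i (-0.145), Polr2j (-0.178), Polr3b (0.571), Polr3f (-0.026) and Polrmt (-0.013). The trend explained 0.268 of the variance of fold changes (r squared) over 99.75% of the tested genes, and whether it is technical or biological was not tested.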
